A study of Mus musculus with 6 samples.

Results

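Cholesterol synthesis, its regulation and cholesterol export were described through 27 genes in the prefrontal cortex of *Pla2g4e* knockout and wild-type mice. The members were 18 enzymes of the sterol pathway, 5 regulators of that pathway and 4 genes of cholesterol efflux, turnover or transport. They were listed by role and matched by symbol to the gene identifiers of the count tables, and the rule itself uses no measured value. All 27 were found among the 56923 genes of the tables, and all 27 were among the 19084 genes tested. Polyadenylated RNA was sequenced from 3 KO and 3 WT samples. KO samples carried the constitutive *Pla2g4e* tm2a allele on the C57BL/6N-A tm1Brd background, in which splicing into a LacZ trap is predicted to leave no functional product. Samples labelled WT are taken from their labels to carry no such allele, and the labels name no agent for either group. The labels give neither age nor sex. The study's methods give no age for these samples and say that both sexes were used in its experiments. The labels do not say whether replicates came from separate mice, so p-values measure only the spread between these 6 libraries, which may be technical in part.

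Cholesterol is built from acetyl-CoA through mevalonate, isoprenoid and squalene intermediates, and the last steps turn lanosterol into cholesterol. When membrane sterol falls, SCAP escorts the SREBP transcription factors from the endoplasmic reticulum to the Golgi, where they are cleaved and set free to switch on the enzymes, and INSIG proteins hold this transport back when sterol is plentiful. The brain makes its own cholesterol because lipoproteins do not cross the blood-brain barrier, with glia as large producers, and neurons clear the excess through CYP46A1, whose oxysterol product also feeds the liver X receptors that turn on *Abca1* and *Abcg1*.

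Promoter windows of 300 bases, from 250 before to 50 after the annotated gene start, were taken from RefSeq on the GRCm38.p6 build, and 22 of the 27 members had an entry. *Fdps*, *Fdft1*, *Sqle*, *Abcg1* and *Stard4* had none. A sterol-response-like motif, TCACNCCAC, and the CCAAT box were searched on both strands. A gene with several annotated starts had several windows, and it was counted as having a motif if any window held it. *Dhcr7*, *Pmvk*, *Srebf1* and *Insig2* each had windows with and without a CCAAT box. The 4 windows shown were chosen because they belong to the member with the sterol motif, to an enzyme that varied strongly between KO libraries, and to the 2 members with an unadjusted p-value under 0.05. They lie at chr13:119690101-119690400 (plus strand, *Hmgcs1*), chr8:64733529-64733828 (minus strand, *Msmo1*), chrX:8193463-8193762 (minus strand, *Ebp*) and chr4:53159846-53160145 (minus strand, *Abca1*). Capitals mark the matches, and ATTGG is CCAAT read on the other strand.
Hmgcs1: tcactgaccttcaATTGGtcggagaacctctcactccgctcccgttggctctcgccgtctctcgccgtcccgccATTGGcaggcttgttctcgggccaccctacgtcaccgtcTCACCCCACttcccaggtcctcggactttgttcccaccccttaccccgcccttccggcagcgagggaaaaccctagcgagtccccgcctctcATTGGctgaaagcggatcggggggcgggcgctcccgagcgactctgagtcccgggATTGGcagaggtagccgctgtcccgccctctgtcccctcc
Msmo1: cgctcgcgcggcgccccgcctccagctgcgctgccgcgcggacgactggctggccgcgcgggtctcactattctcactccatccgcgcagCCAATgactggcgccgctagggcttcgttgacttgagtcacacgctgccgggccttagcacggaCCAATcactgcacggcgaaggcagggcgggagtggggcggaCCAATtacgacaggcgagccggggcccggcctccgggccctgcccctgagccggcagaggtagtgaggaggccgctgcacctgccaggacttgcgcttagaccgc
Ebp: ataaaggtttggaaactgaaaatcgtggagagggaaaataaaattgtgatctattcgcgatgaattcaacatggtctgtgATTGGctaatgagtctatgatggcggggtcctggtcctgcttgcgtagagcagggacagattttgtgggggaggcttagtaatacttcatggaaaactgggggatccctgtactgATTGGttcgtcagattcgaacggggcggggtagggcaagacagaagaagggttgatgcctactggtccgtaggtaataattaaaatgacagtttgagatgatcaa
Abca1: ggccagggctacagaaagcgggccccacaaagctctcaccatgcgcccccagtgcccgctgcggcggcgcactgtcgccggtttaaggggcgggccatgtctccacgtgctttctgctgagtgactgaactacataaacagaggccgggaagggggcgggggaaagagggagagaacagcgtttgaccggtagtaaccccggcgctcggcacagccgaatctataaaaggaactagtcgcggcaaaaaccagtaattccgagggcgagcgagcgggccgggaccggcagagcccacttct

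*Hmgcs1* was the only member with TCACNCCAC, at 137 bases before the gene start and apart from its CCAAT boxes, against 1.44% of 27025 genes with a window. It also held 4 CCAAT boxes, *Msmo1* held 3, *Ebp* held 2 and *Abca1* held none. At least 1 CCAAT box stood in 14 of the 15 enzymes with an entry (93.3%), with *Acat2* as the exception. The share was 4 of 5 for the regulators, 7 of 13 (53.8%) for genes of fatty acid synthesis and related lipid steps that SREBP factors also drive, and 41.1% for all genes with a window. These are matches of letters in a window, not measured binding sites.

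Library totals ranged from 11792463 to 14594230 fragments, and the members had between 59 fragments (*Idi1*, WT replicate 2) and 3236 fragments (*Srebf2*, KO replicate 1) in a library. *Pla2g4e* was at 5.95, 8.12 and 7.97 CPM in the KO libraries and at 7.84, 11.3 and 13.2 CPM in the libraries labelled WT. CPM is the share of a library's fragments that fall on a gene, in counts per 1e6 fragments after scaling. The groups overlapped at this gene, since replicate 1 of the libraries labelled WT had a KO-like level. KO was below WT by a log2 fold change of -0.55 (SE 0.21), at an adjusted p = 0.635 in limma-voom. Fragments over all exons were summed, so there is no value for the trapped part alone. The labels were not checked on that part, and groups and directions follow the labels. *Xist* stood at 1390 CPM for KO replicate 1, with 969 CPM for the library labelled WT replicate 1, and Y-linked transcripts were near 0 in both, while the other 4 libraries summed to between 182 and 190 CPM of Y-linked transcripts. The forebrain neuron markers *Snap25*, *Slc17a7* and *Neurod6* were detected in every library, and the summed level of 10 striatal neuron markers ranged from 310 to 519 CPM, with KO replicate 2 and WT replicate 3 highest.

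Levels between genes were compared per kilobase of exon. *Cyp46a1*, the neuronal cholesterol hydroxylase, stood highest with a mean of 61.7 CPM per kb over the 6 libraries. *Hmgcs1*, which makes hydroxymethylglutaryl-CoA, followed at 51.2 and *Srebf2*, which encodes the SREBP that favours cholesterol genes, at 32.9 CPM per kb. The ranges of these 3 genes did not overlap that of the next gene in the order. Then came *Pmvk* at 17.6, *Fdft1* at 17.4 and *Insig1* at 17.2 CPM per kb, whose ranges overlapped. The lowest were *Abca1* at 4.20, *Fdps* at 2.09 and *Idi1* at 1.56 CPM per kb. For 23 of the 26 pairs of neighbours in this order the ranges overlapped, so most of the middle of the order is not resolved.

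Some of these levels are uncertain because fragments that fit several genes were not counted. *Acat2* shares 1477 bases at 97.7% identity with *Acat3*, *Fdps* shares 1062 bases at 98.9% with *Gm3571*, *Fdft1* shares 1249 bases at 97.4% with *Gm6781*, and *Idi1* shares 684 bases at 100% with *Gm13502*. A gene on the same strand overlaps 26.7% of the exon length of *Fdps* and 12.1% of that of *Tm7sf2*.

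**Figure D1:**
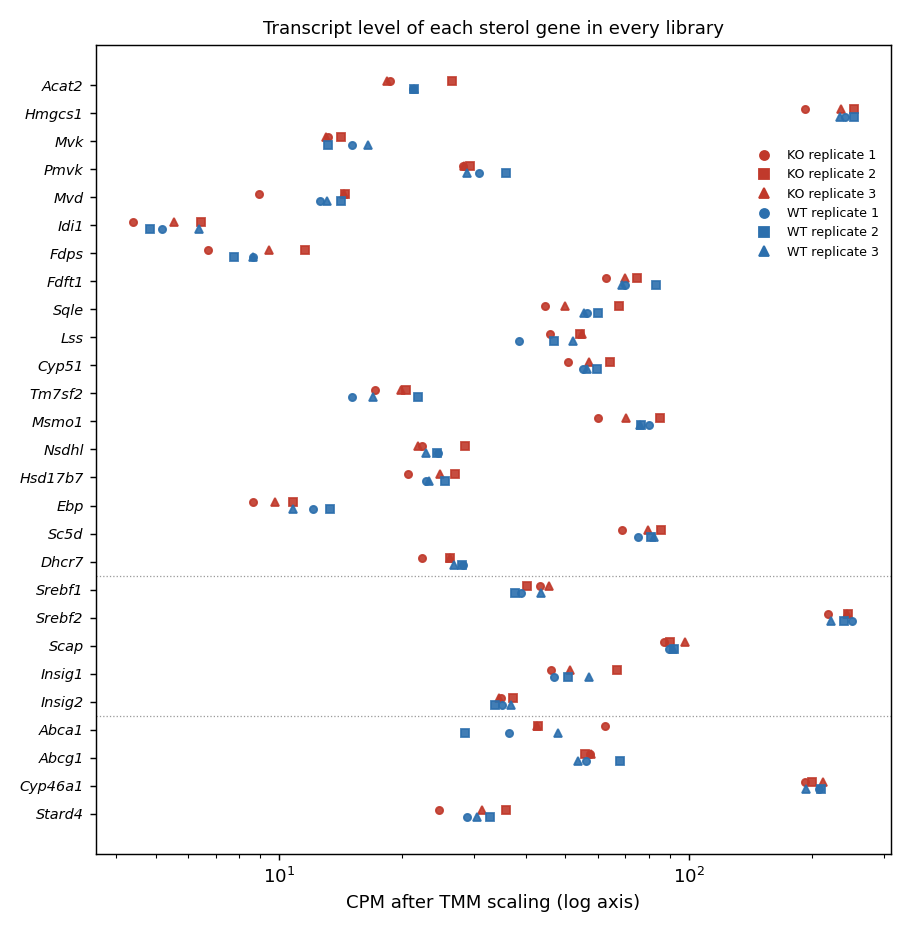
CPM of each of the 27 genes (log axis) in the 3 KO and 3 WT libraries, 1 point per library, with dotted lines between enzymes, regulators and efflux, turnover or transport genes. The KO and WT points of most genes interleave, and KO replicate 1 is the left-most point for 18 of the 27.

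No sterol gene passed the adjusted threshold between KO and WT. The comparison asked whether loss of *Pla2g4e* changed their transcript levels, and in bulk tissue fewer cells of a type and less RNA per cell cannot be told apart. Of the 27 genes, 9 had a higher and 18 a lower mean log2 level in KO, with a median log2 fold change of -0.03 against 0.01 over all genes tested. With library totals in place of TMM scaling, and likewise with library quality weights, 14 were higher and 13 lower. Over all genes, 0 of 19084 (0%) passed the Benjamini-Hochberg adjusted threshold in limma-voom, and 1492 had an unadjusted p-value under 0.05 (7.82%). Among the members 2 of 27 did, *Abca1* in the higher direction (all genes 4.38%) and *Ebp* in the lower direction (all genes 3.44%). The quasi-likelihood test of edgeR gave the same 2 genes by unadjusted p-value (all genes 7.9%), and DESeq2 gave 0 (all genes 4.73%). With a covariate for Y-linked transcripts in limma-voom, 21 genes passed the adjusted threshold, none of them a member, and 3 members (*Lss*, *Ebp* and *Abca1*) had an unadjusted p-value under 0.05, against 10.5% of all genes in that fit. The median SE of the members' log2 fold changes was 0.11, against 0.14 over all genes.

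*Abca1* encodes the transporter that loads cholesterol onto apolipoproteins (ENSMUSG00000015243.5, chr4:53030787-53159895 on the minus strand of GRCm39). Its level was 62.4, 43.0 and 42.6 CPM in the KO libraries, against 36.4, 28.5 and 47.9 CPM in the WT libraries, or 49.4 ± 11.3 against 37.6 ± 9.75 (SD, n = 3 each). KO replicate 1 was the highest library and WT replicate 2 the lowest, and the groups overlapped because WT replicate 3 exceeded KO replicates 2 and 3. KO exceeded WT by 0.41 on the log2 scale (SE 0.18, 95% interval 0.02 to 0.79), with an adjusted p = 0.635 in limma-voom. It was 0.22 without KO replicate 1, 0.40 without WT replicate 1, 0.23 without WT replicate 2 and 0.60 without WT replicate 3. In the 4 libraries lower in striatal markers it was 0.68.

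*Ebp* encodes the sterol isomerase that moves a ring double bond late in the pathway (ENSMUSG00000031168.15, chrX:8051568-8059751 on the minus strand of GRCm39). It was at 8.65, 10.8 and 9.76 CPM in the KO libraries, against 12.1, 13.3 and 10.8 CPM in the WT libraries, or 9.74 ± 1.08 against 12.1 ± 1.29 (SD, n = 3 each). The groups overlapped narrowly, since KO replicate 2 lay just above WT replicate 3, both at 10.8 CPM when rounded. The log2 fold change was -0.32 (SE 0.14, 95% interval -0.62 to -0.01) and the adjusted p = 0.635 in limma-voom. Over the alternatives its log2 fold change ran from -0.22, within the 4 libraries with Y-linked transcripts, to -0.47, within the 4 libraries lower in striatal markers.

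*Dhcr7*, the reductase of the final step of one branch of the pathway (ENSMUSG00000058454.16, chr7:143376882-143402147 on the plus strand of GRCm39), was the only member whose groups did not overlap. It was at 22.3, 26.1 and 26.2 CPM in the KO libraries, against 28.1, 27.9 and 26.8 CPM in the WT libraries, and all 3 KO libraries lay below all 3 WT libraries. The log2 fold change of *Dhcr7* reached -0.16 (SE 0.09), with an adjusted p = 0.668 in limma-voom. Groups did not overlap for 13% of all genes tested, and for 6.29% in this direction, so 1 of 27 is not above the background. Without KO replicate 1 the log2 fold change was -0.08.

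**Figure D2:**
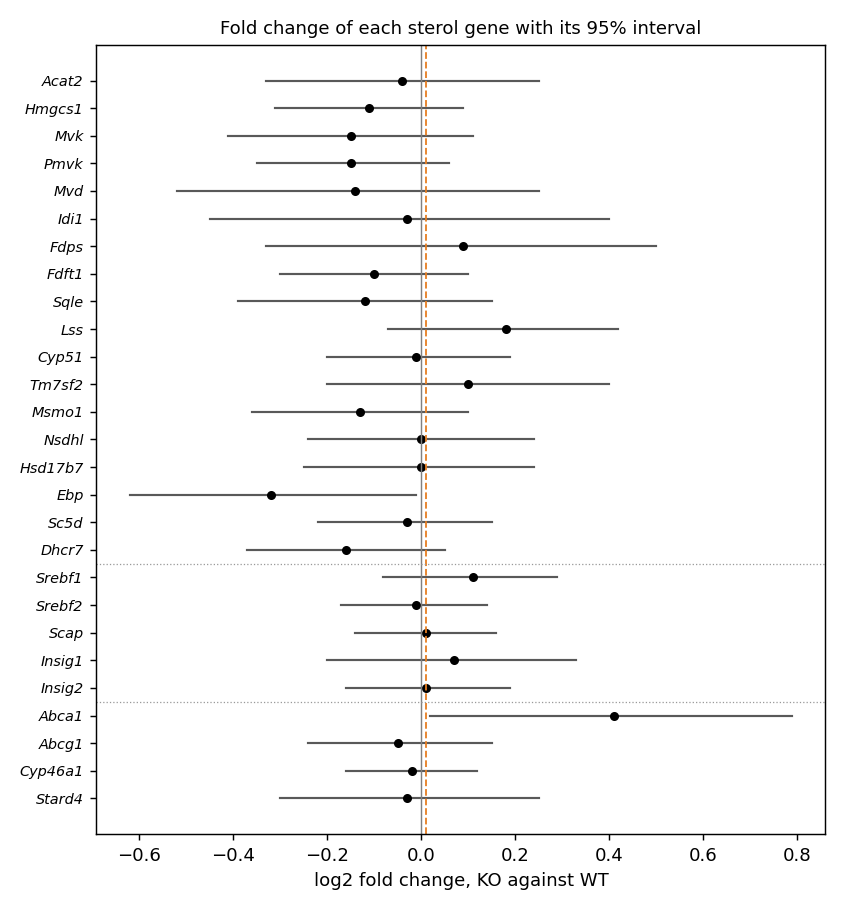
Log2 fold change of KO against WT for each gene (points) with its 95% interval from limma-voom (lines), the median over all genes tested as a dashed line and dotted lines between the role groups. The intervals of *Ebp* (-0.62 to -0.01) and *Abca1* (0.02 to 0.79) are the only ones that leave out 0.

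Among the 18 enzymes, 4 had a positive and 14 a negative log2 fold change, with a median of -0.07 and a range from -0.32 to 0.18. The upstream enzymes that lead to isoprenoids included *Hmgcs1* at 192, 254 and 235 CPM in KO against 241, 254 and 234 CPM for WT, a log2 fold change of -0.11 (95% interval -0.31 to 0.09). The mevalonate kinases *Mvk* and *Pmvk* both had a log2 fold change of -0.15, the decarboxylase *Mvd* -0.14, the isomerase *Idi1* -0.03 and the farnesyl diphosphate synthase *Fdps* 0.09. For *Acat2*, the thiolase that joins acetyl-CoA units, it was -0.04.

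The squalene and lanosterol steps also lay within the spread of the libraries. *Sqle*, the squalene epoxidase and a rate-limiting step, was at 44.5, 67.5 and 49.8 CPM in the KO libraries, against 56.6, 60.1 and 55.5 CPM in the WT libraries, so the KO libraries lay on both sides of all the WT values. The squalene synthase *Fdft1* had a log2 fold change of -0.10. *Lss*, the lanosterol synthase, was at 46.0, 54.2 and 54.9 CPM against 38.5, 46.9 and 52.2 CPM, with a log2 fold change of 0.18 (95% interval -0.07 to 0.42). It was 0.05 without WT replicate 1 and 0.27 without WT replicate 3.

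Of the enzymes that trim lanosterol, the demethylase *Cyp51* was at 57.3 ± 6.73 CPM for KO and 57.2 ± 2.39 CPM for WT (SD, n = 3 each). *Msmo1*, the methylsterol oxidase, was at 60.2, 85 and 70.3 CPM in the KO libraries, against 80.2, 76.4 and 75.9 CPM in the WT libraries. Here too 1 KO library lay above and the other two below all WT values, and the log2 fold change was -0.13 (-0.01 without KO replicate 1 and -0.26 without KO replicate 2). *Nsdhl* and *Hsd17b7* had log2 fold changes of 0.00 with intervals within -0.25 to 0.24, and the desaturase *Sc5d* had -0.03. The reductase *Tm7sf2* had 0.10.

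The regulators had log2 fold changes between -0.01 and 0.11, with a median of 0.01. *Srebf2* was at 236 ± 14.7 CPM for KO and 238 ± 14 CPM for WT (SD, n = 3 each), and its 95% interval ran from -0.17 to 0.14. *Srebf1*, which encodes the SREBP that favours fatty acid genes, had 0.11 (95% interval -0.08 to 0.29). For *Scap* the interval was -0.14 to 0.16, and for *Insig2* it was -0.16 to 0.19. *Insig1*, itself a target of SREBP, was at 46.2, 67.0 and 51.2 CPM in the KO libraries, against 47.0, 50.7 and 57.1 CPM in the WT libraries, with a log2 fold change of 0.07.

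The efflux and turnover genes other than *Abca1* had log2 fold changes from -0.05 to -0.02. *Abcg1*, a second sterol transporter, was at 57.4, 55.9 and 57.9 CPM in the KO libraries, against 56.3, 67.9 and 53.7 CPM in the WT libraries. *Cyp46a1* was at 202 ± 10.5 CPM for KO and 204 ± 8.60 CPM for WT (SD, n = 3 each), and its 95% interval of -0.16 to 0.12 was among the narrowest of the set. *Stard4*, a carrier that moves sterol between membranes, was at 24.6, 35.9 and 31.3 CPM in the KO libraries, against 28.7, 32.8 and 30.4 CPM in the WT libraries.

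The enzymes had a common order between 2 of the KO libraries. All 18 were higher in KO replicate 2 than in KO replicate 1, with a median log2 difference of 0.34, whereas 49.9% of all genes tested were, with a median of 0.00. KO replicate 1 was the lowest of the 6 libraries for 13 of the 18 enzymes (72.2%), against 22.9% of genes in the members' range of mean CPM. KO replicate 2 was the highest for 11 of the 18 (61.1%), against 14% of those genes. This pattern was noticed in these data and chosen for description after the values were seen, and no test was made of it. The counts were 12 to 13 and 10 to 12 under 3 other scalings. KO replicate 1 was also the deepest library, at 14594230 fragments, with the highest mitochondrial share, 7.41%, and KO replicate 2 the shallowest, at 11792463 fragments and 6.38%. In WT replicate 3, with a mitochondrial share of 7.39%, the enzymes had a median deviation of 0.00. The part of the mitochondrial share in the levels of the enzymes was not tested.

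The differences between these 2 libraries were of unequal size. *Fdps* differed by 0.80 on the log2 scale, from 6.69 to 11.6 CPM, *Mvd* by 0.70, from 8.92 to 14.5 CPM, and *Sqle* by 0.60. *Hmgcs1* differed by 0.40, *Cyp51* by 0.34, *Sc5d* by 0.32 and *Pmvk* by 0.06. KO replicate 3 lay between them for most enzymes, and the median deviation of the 18 enzymes from the mean of the 6 libraries was -0.20, 0.16 and 0.00 in KO replicates 1 to 3. In the WT libraries it was 0.00, 0.08 and 0.00.

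For most enzymes the spread was wider among the KO libraries. The SD of log2 CPM was larger in KO for 13 of the 18 enzymes (72.2%), against 45.1% of all genes tested. The median SD was 0.18 in KO and 0.08 in WT, while over genes in the members' range of mean CPM it was 0.10 and 0.11. For *Msmo1* the SD was 0.25 against 0.04, for *Sqle* 0.31 against 0.06 and for *Hmgcs1* 0.21 against 0.06. *Lss*, *Tm7sf2*, *Mvk*, *Pmvk* and *Fdft1* were the reverse, with *Mvk* at 0.07 against 0.16. With 3 libraries per group, a difference in spread rests on 1 or 2 libraries.

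Beyond the enzymes, *Insig1* and *Stard4* had the same order of KO libraries, with differences between KO replicates 2 and 1 of 0.53 and 0.55 on the log2 scale. For the other regulators the difference lay between -0.10 (*Srebf1*) and 0.16 (*Srebf2*). *Abca1* ran the opposite way, with -0.53. *Abcg1* differed by -0.04 and *Cyp46a1* by 0.06.

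**Figure D3:**
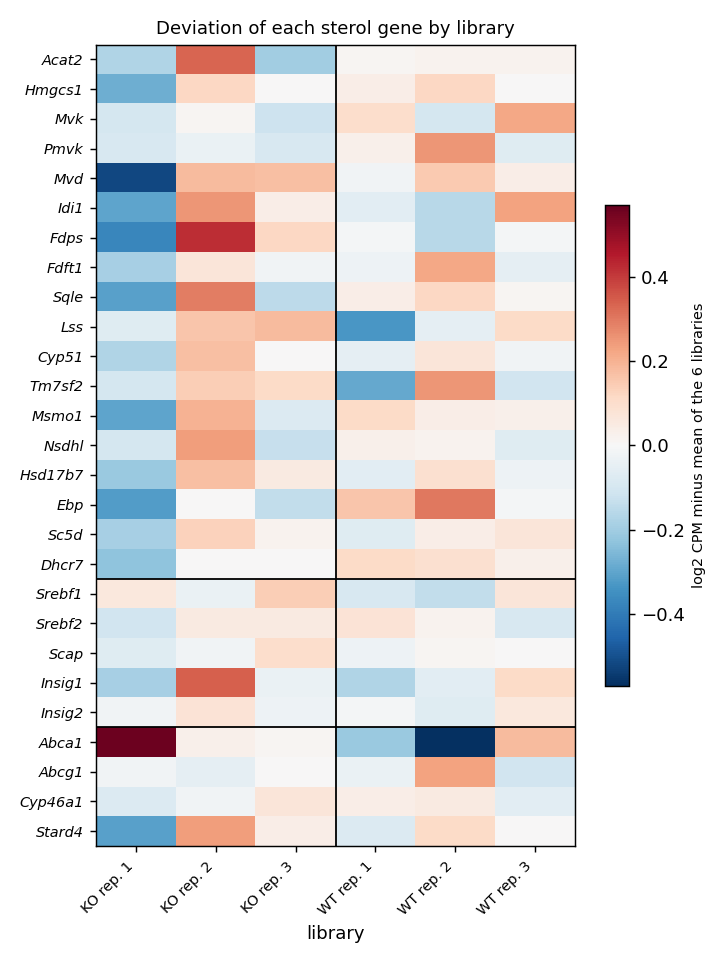
Deviation of each gene's log2 CPM from its mean over the 6 libraries (colour, blue lower and red higher), with genes in rows by role and libraries in columns. The column of KO replicate 1 is blue and that of KO replicate 2 mostly red through the enzymes, *Insig1* and *Stard4*, while *Abca1* is red in KO replicate 1.

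A further 30 sterol genes and 17 SREBP-driven genes of fatty acid synthesis and related lipid steps were read beside the members. Of the 30 further sterol genes 17 had a positive and 13 a negative log2 fold change, with a median of 0.03. In limma-voom 0 of the 30 had an unadjusted p-value under 0.05, against 7.82% of all genes. The groups did not overlap for 3 of the 30, a share not above the 13% of all genes. *Gramd1c*, a carrier of membrane sterol, was higher in KO at 3.11, 3.02 and 3.36 CPM against 2.35, 2.29 and 2.28 CPM (all genes without overlap in this direction 6.72%). *Erg28*, a scaffold of the sterol enzymes, was lower at 23.1, 24.5 and 23.2 CPM against 27.6, 26.1 and 24.5 CPM (all genes without overlap in this direction 6.29%). Its groups were parted only narrowly, since KO replicate 2 lay just below WT replicate 3, both at 24.5 CPM when rounded. The oxysterol hydroxylase *Cyp7b1* was lower at 7.50, 7.96 and 8.28 CPM against 8.70, 10.1 and 8.40 CPM (all genes without overlap in this direction 6.29%).

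The 17 fatty acid genes had a median log2 fold change of 0.00 (range -0.10 to 0.20). In limma-voom 0 of the 17 had an unadjusted p-value under 0.05, against 7.82% of all genes. They did not share the order of the KO libraries. Only 8 of the 17 were higher in KO replicate 2 than in KO replicate 1, with a median log2 difference of -0.01. *Fasn*, the fatty acid synthase, was at 298, 307 and 296 CPM in KO and *Scd2*, a stearoyl-CoA desaturase, at 1260, 1210 and 1210 CPM. Among the 30 further sterol genes it was 15 of 30, with a median of 0.01.

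Markers of cell types were read in the same libraries. The summed level of 10 oligodendrocyte markers was 1260, 1430 and 1430 CPM in the KO libraries, against 941, 1060 and 1590 CPM in the WT libraries, with 8 of 10 higher in KO, and 10 of 10 were higher in KO replicate 2 than in KO replicate 1. The lowest library for this sum was the library labelled WT replicate 1, in which the median deviation of the enzymes was 0.00. The 9 neuron markers summed to 7200, 7800 and 7920 CPM in the KO libraries, against 8550, 8980 and 7840 CPM in the WT libraries. Of these, 7 of 9 were lower in KO (all but *Gad1* and *Gad2*, the enzymes of GABA synthesis). In limma-voom 4 of the lower ones had an unadjusted p-value under 0.05 (all genes in this direction 3.44%). *Neurod6* alone was without overlap (lower in KO, all genes 6.29%). KO replicate 1 was lowest for 6 of 9 neuron markers, against 20% of all genes. Of the 9, 7 were higher in KO replicate 2 than in KO replicate 1, with a median log2 difference of 0.16. The 10 astrocyte markers summed to 4770, 4390 and 4800 CPM in the KO libraries, against 4620, 4190 and 4690 CPM in the WT libraries, with 9 of 10 higher in KO, *Acsbg1* alone at an unadjusted p-value under 0.05 in limma-voom (higher in KO, all genes 4.38%) and *S1pr1* alone without overlap (lower in KO, all genes 6.29%), and only 2 of 10 were higher in KO replicate 2 than in KO replicate 1.

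Markers of striatal neurons were at 400, 519 and 408 CPM in the KO libraries, against 310, 315 and 491 CPM in the WT libraries. KO replicate 2 and WT replicate 3 were both high in these, with enzyme deviations of 0.16 and 0.00. All 10 were higher in KO than in WT, as were 51.9% of all genes, with *Penk* alone at an unadjusted p-value under 0.05 in limma-voom (all genes in this direction 4.38%). Like the enzymes, 9 of 10 striatal markers were higher in KO replicate 2 than in KO replicate 1, with a median log2 difference of 0.60, and KO replicate 2 was the highest library for 6 of 10. The 8 microglia markers summed to between 340 and 430 CPM and 8 endothelium markers to between 241 and 297 CPM. The part of cell composition and of depth in the levels of the enzymes was not tested. KO replicate 1, like the library labelled WT replicate 1, lacks Y-linked transcripts, and their enzyme deviations were -0.20 and 0.00. The part of this lack in the levels of the enzymes was not tested either.

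**Figure D4:**
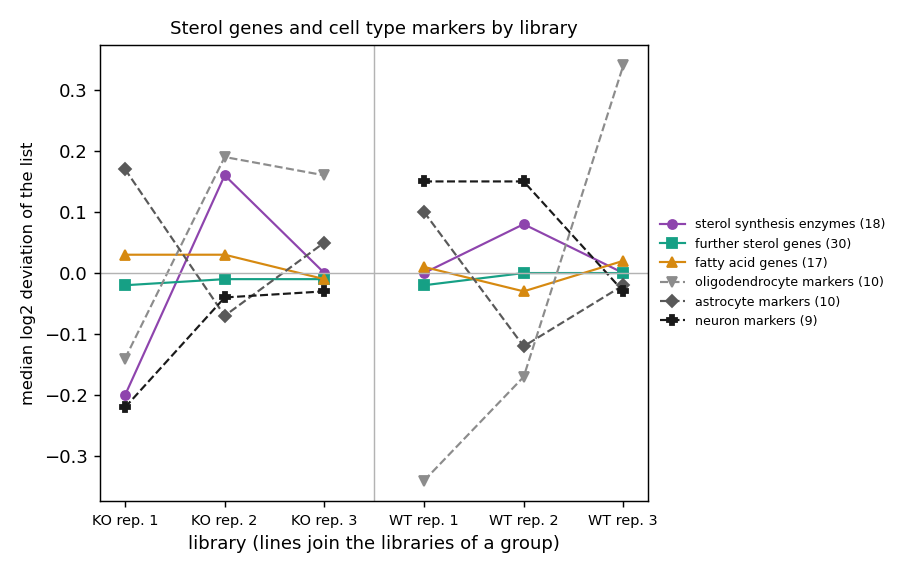
Median log2 deviation from the mean of the 6 libraries for 3 lists of lipid genes (solid lines) and 3 lists of cell type markers (dashed lines), by library. The enzymes go from -0.20 to 0.16 between KO replicates 1 and 2, while the fatty acid genes and the further sterol genes stay within -0.03 and 0.03.

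The direction of the sterol genes between genotypes changed with single libraries and with the scaling. Without KO replicate 1, 7 rather than 18 of the 27 members were lower in KO, and 6 rather than 14 of the 18 enzymes, with a median log2 fold change of the enzymes of 0.05. Without KO replicate 2, 22 members and 16 enzymes were lower, with a median of -0.16. Without WT replicate 2 it was 14 members and 12 enzymes. Without the library labelled WT replicate 1, which had a KO-like *Pla2g4e* level, it was 20 members and 15 enzymes, with an enzyme median of -0.09. In that fit 0 members had an unadjusted p-value under 0.05 in limma-voom, against 5.38% of all genes. Within the 4 libraries with Y-linked transcripts, 6 members and 5 enzymes were lower and the median of the enzymes was 0.03. Within the 4 libraries lower in striatal markers (all but KO replicate 2 and WT replicate 3), 21 members and 16 enzymes were lower and the median was -0.17. No member passed the adjusted threshold in any of these fits.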

How the data were processed

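Counts of fragments per gene, deposited as 1 table per sample, were made by the authors with STAR 2.7.9a and featureCounts 1.6.0, without normalization or pooling. The file headers name GENCODE M31 on GRCm39 and reverse-stranded counting, whereas the study's methods name an earlier build. Fragments that fit several places or genes were not counted, which lowers genes with near-identical copies. Such copies were sought among GENCODE transcripts of GRCm38 at 97% identity over at least 200 bases.

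Genes with at least 6 fragments in 1 library were tested, a filter taken from the study's methods, which also name edgeR, voom and limma. TMM factors (edgeR 4.0.16) and limma-voom (limma 3.58.1, R 4.3.3) were used with no covariates, two-sided, with p-values adjusted over all 19084 genes by the Benjamini-Hochberg procedure and a threshold of 0.05. Log2 deviations used a prior count of 0.5. Library totals were 11792463 to 14594230 fragments. There were no molecular identifiers, so the intervals do not account for duplicate fragments. All members were named. The members and lists were chosen with earlier results of these data known. Alternatives were edgeR's quasi-likelihood test, DESeq2 1.42.0, other scalings and filters, quality weights, a replicate block, a Y-linked covariate, subsets of libraries and leaving out each library. The counts by library under other scalings were added after seeing the data. Scripts were tested on simulated data. Some genes of the pathway and of the marker lists are not reported here. Replicate numbers were not shown to pair the samples.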

Additional observations from a re-analysis of the deposited data

How the results depend on the processing

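No member passed the adjusted threshold under any alternative, and the lowest adjusted p-value of a member in limma-voom was 0.286, for *Abca1* without WT replicate 3. *Ebp*, *Dhcr7*, *Abca1*, *Lss*, *Srebf1*, *Mvk*, *Pmvk* and *Fdft1* kept their direction under every alternative run, but not their size. When 1 library was left out, *Fdft1* ranged from -0.16 to -0.01 on the log2 scale, *Pmvk* from -0.22 to -0.06, *Mvk* from -0.23 to -0.08, *Srebf1* from 0.06 to 0.17, *Lss* from 0.05 to 0.27, *Dhcr7* from -0.20 to -0.08, *Ebp* from -0.40 to -0.23 and *Abca1* from 0.22 to 0.60. The number of members with an unadjusted p-value under 0.05 was 2, and it was 0 under DESeq2, 1 with library totals only, 1 with no filter beyond 1 fragment, 1 under filterByExpr, 0 in the 4 libraries with Y-linked transcripts and 4 in the 4 libraries lower in striatal markers. It ranged from 0 to 4 when 1 library was left out. The share of all genes, 7.82%, moved as well, to 4.73% under DESeq2, to 3.77% and 10.2% in those subsets of 4 libraries, to 4.13% without WT replicate 2 and to 2239 of 18931 genes without WT replicate 3, but stayed between 7.06% and 8.34% with library totals only and the other filters. Of the 27 members, 18 were lower in KO, against 13 with library totals only and with library quality weights, and 7 to 22 when 1 library was left out. Groups did not overlap for 1 member, for 5 and 11 members in those subsets of 4 libraries, and for 1 to 8 when 1 library was left out, since fewer libraries overlap less. The share of all genes without overlap was 13% over the 6 libraries, 32% and 43.1% in those subsets, and 20.4% to 30.9% when 1 library was left out. In the 4 libraries with Y-linked transcripts the median log2 fold change was 0.08 for the regulators and 0.06 for the efflux, turnover and transport genes, which ranged from -0.06 to 0.07 when 1 library was left out.

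Other values changed sign. The log2 fold change was 0.00 for *Cyp51* and 0.01 for *Hsd17b7* with edgeR's quasi-likelihood test, 0.00 for *Hsd17b7* with DESeq2, with upper-quartile factors and with no filter beyond 1 fragment, and 0.00 for *Nsdhl* with RLE factors and filterByExpr. With library totals only it was 0.00 for *Idi1*, 0.02 for *Cyp51* and *Hsd17b7*, and 0.01 for *Srebf2* and *Cyp46a1*. With library quality weights it was 0.04 for *Idi1*, 0.02 for *Hsd17b7* and 0.01 for *Cyp51*, *Srebf2* and *Stard4*. With the Y-linked covariate it was 0.01 for *Hsd17b7*. In the 4 libraries with Y-linked transcripts it was 0.00 for *Hmgcs1* and *Sqle*, 0.08 for *Mvd*, *Hsd17b7* and *Srebf2*, 0.10 for *Idi1*, 0.06 for *Cyp51*, 0.02 for *Msmo1* and *Sc5d*, 0.03 for *Acat2* and *Cyp46a1*, and 0.09 for *Stard4*. In the 4 libraries lower in striatal markers it was -0.06 for *Fdps*, -0.15 for *Nsdhl* and -0.01 for *Insig1*. The cause was not tested.

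When 1 library was left out, the log2 fold change ranged from -0.20 to 0.01 for *Hmgcs1*, -0.26 to 0.12 for *Mvd*, -0.15 to 0.14 for *Idi1*, -0.09 to 0.32 for *Fdps*, -0.29 to 0.01 for *Sqle*, -0.09 to 0.08 for *Cyp51*, -0.02 to 0.25 for *Tm7sf2*, -0.26 to -0.01 for *Msmo1*, -0.12 to 0.06 for *Nsdhl*, -0.09 to 0.11 for *Hsd17b7*, -0.11 to 0.06 for *Sc5d*, -0.21 to 0.04 for *Acat2*, -0.06 to 0.04 for *Srebf2*, -0.09 to 0.18 for *Insig1*, -0.02 to 0.05 for *Insig2*, -0.04 to 0.04 for *Scap*, -0.12 to 0.05 for *Abcg1*, -0.06 to 0.02 for *Cyp46a1* and -0.15 to 0.13 for *Stard4*.

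Samples with the same replicate number were not shown to be paired, since the correlations of their deviations were 0.479, 0.134 and 0.007. With the replicate block, 3 members (*Lss*, *Ebp* and *Abca1*) had an unadjusted p-value under 0.05, against 8.87% of all genes, and *Hsd17b7* had a log2 fold change of 0.01. Depth limits the genes of few fragments, such as *Idi1* with 59 to 81, *Fdps* with 95 to 139 and *Ebp* with 125 to 163 per library.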
